A study of Mus musculus with 8 samples.

Results

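The vaccinia-related kinases are a small family of serine/threonine kinases on the casein kinase 1 branch of the kinome, and mice have 3 of them, Vrk1, Vrk2 and Vrk3. They were taken as every probe whose gene name in the array files was Vrk1, Vrk2 or Vrk3 and that was no control. The rule found 5 probes for the 3 genes, among 41174 probes with 27962 gene names. Each probe was described on its own, in the testes of 4 wild type and 4 VRK1-deficient mice at postnatal day 8. The comparison shows how much Vrk1 signal is left in the mutant and whether its paralogs differ between the genotypes.

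The VRK1-deficient mice carry a gene trap in the third intron of Vrk1, where a β-geo cassette (β-galactosidase fused to neomycin resistance) joins the N-terminal part of the kinase. The trap came from the single ES cell clone RRR178, and the mice had been backcrossed to C57BL/6. The study treats the allele as hypomorphic, with some full length VRK1 still expressed, as judged by PCR of its mRNA. The study also cites an earlier report in which Vrk1 transcripts of VRK1-deficient mice were strongly reduced but not absent. In thymus, spleen and testis of the mutants its antibody detected no VRK1 protein, which the study takes as too low to detect. Wild type and VRK1-deficient samples were 4 biological replicates each by their labels, with whole testis RNA of 1 sample on each array. The labels mention neither pooling nor litters, so p-values measure the spread between these samples. Because this is bulk RNA, fewer cells of a type and less RNA per cell cannot be told apart. The samples lay on 2 slides, with replicates 1 and 2 of each genotype on slide 1 and the remaining ones on slide 2. The wild type samples took positions 1 and 2 of each slide and the mutants positions 3 and 4, so position and genotype cannot be told apart.

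VRK1 is a mainly nuclear kinase, known for phosphorylating BAF (the product of Banf1, a DNA-binding protein of the nuclear envelope), histone H3 and p53, and for its roles in cell cycle progression and in germ cells. VRK2 is an active kinase with a membrane-anchored form at the endoplasmic reticulum and nuclear envelope. VRK3 is regarded as a pseudokinase, and is known to stimulate VHR (the product of Dusp3), a phosphatase that acts on ERK.

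Both Vrk1 probes are shown whole, because the residual signal in the mutant rests on them. They are the 60-base sequences of the array files, given 5′ to 3′ in the sense of the transcript (NM_011705).
A_51_P102339: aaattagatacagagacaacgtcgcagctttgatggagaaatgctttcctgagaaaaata
A_52_P555672: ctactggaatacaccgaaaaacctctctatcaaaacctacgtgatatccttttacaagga

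The files place A_51_P102339 on the + strand at chr12:103556489-103557469 of build mm7. The probe has 60 bases and its position covers 981, so its ends lie on either side of a gap of 921 bases, as those of a probe over a splice junction do. It is called the junction probe here. A_52_P555672 lies 3′ of it on the same strand, at chr12:103560461-103560520, without a gap, and is called the contiguous probe. Both are taken as coding sequence from the C-terminal part of the kinase domain, downstream of the trapped intron. This placement rests on general knowledge of the protein and was not checked against a genome or protein sequence. If it holds, neither probe can report the fused N-terminal part.

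Stretches of 30 bases identify the other 3 probes. Vrk2 has a probe for NM_027260 at chr11:26423729-26423788 and a probe for AK089825 at chr11:26497936-26497995, both on the minus strand of mm7. Vrk3 has a single probe, for NM_133945, at chr7:40951795-40951854 on the + strand.
A_52_P200350 (Vrk2): actcaaggacaaggaaaatacatgaatatt
A_52_P113749 (Vrk2): cgtgaaatgatggttgaaaatggattttaa
A_51_P387188 (Vrk3): ctgtttgaactcatagctcctaaaagaatc
Over their whole length, any pair of the 5 probes shared a run of at most 7 bases, and no more than 22 of 60 bases matched when a pair was aligned without gaps. Each probe had 1 spot per array.

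**Figure D1:**
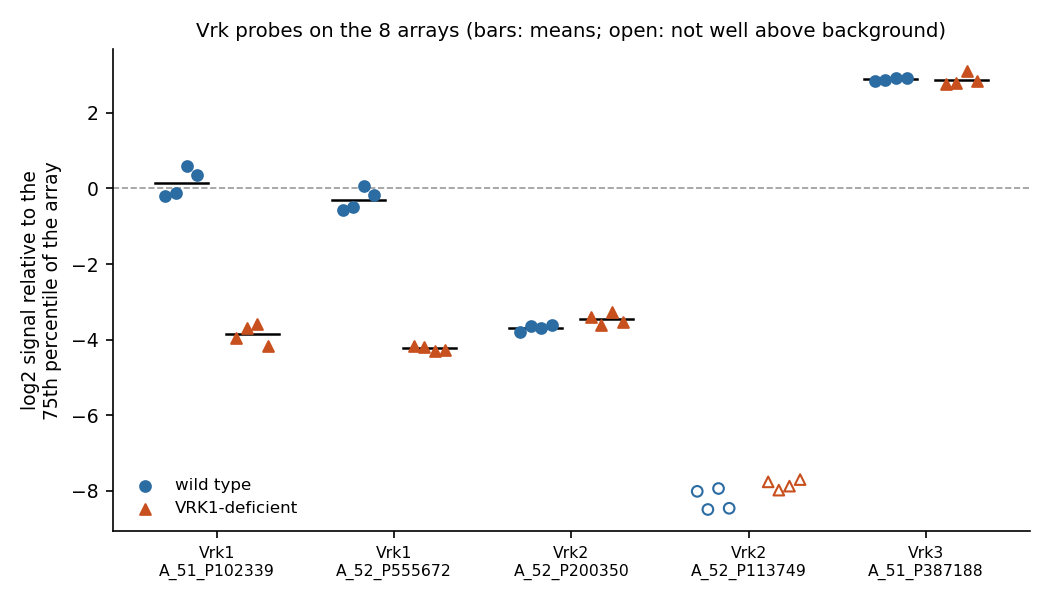
Scaled log2 signal, which is 0 at the array's 75th percentile (vertical axis), for the 5 Vrk probes on the 4 wild type (circles) and 4 VRK1-deficient (triangles) arrays, in replicate order within each group. Bars are means, and open symbols mark the probe that was not well above background on any array. Both Vrk1 probes lay between -0.57 and 0.59 in wild type and between -4.30 and -3.58 in VRK1-deficient testes, whereas the groups overlapped for Vrk2 and Vrk3.

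Vrk1 was the gene with the clear difference. On the junction probe, the background-subtracted linear signals were 582, 785, 966 and 972 on wild type replicates 1 to 4. The signals of VRK1-deficient replicates 1 to 4 were 46.4, 58, 47.9 and 30.6. The groups did not overlap, and the lowest wild type array was far above the highest mutant array. Scaled to the 75th percentile of its array, the probe averaged 0.16 ± 0.38 in wild type testes and -3.85 ± 0.27 in mutant testes (log2 units, SD, n = 4 each). The junction probe thus changed by -4.0 on the log2 scale, with a standard error of 0.21 and a 95% interval from -4.47 to -3.53 (limma adjusted p = 0.000135). This left 6.23% of the wild type signal, with a 95% interval from 4.50% to 8.63%.

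On the contiguous probe, the linear signals were 450, 602, 677 and 671 in wild type testes. In VRK1-deficient testes they were 40.6, 41, 29 and 28.4. Again no mutant array came near a wild type array. Scaled in the same way, it averaged -0.29 ± 0.30 in wild type and -4.23 ± 0.068 in mutant testes (log2 units, SD, n = 4 each). Its change of -3.93 had a standard error of 0.15 and a 95% interval from -4.28 to -3.59 (limma adjusted p = 2.09e-05). The signal left was 6.54% of wild type (95% interval 5.14% to 8.32%). As a share of the wild type mean, single mutant arrays held 5.0% to 7.52% on the junction probe and 6.22% to 6.87% on the contiguous probe. The difference between the log2 changes of these probes was -0.070, within the spread of the arrays (exact two-sided permutation test, p = 0.657).

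Of the 4 Vrk probes that could be tested, 2 were called at a limma adjusted p under 0.05, both of them Vrk1 and both lower. Over the array, 3.66% of the 26962 tested probes were called, 1.98% as lower and 1.67% as higher in VRK1-deficient testes. With signals not scaled between arrays the split was 852 lower and 64 higher, and with quantile normalization it was 344 and 416, against 535 and 451 here. The genotypes did not overlap for 16.7% of tested probes. By size of the fall, the junction probe ranked 2 and the contiguous probe ranked 3 among all tested probes, and by p they ranked 2 and 1. The number of called probes over the array, 986, fell to between 3 and 68 when any 1 array was left out, save for wild type replicate 1. Both Vrk1 probes were called in each of these fits, with a limma adjusted p of at most 0.00182. The fall was smaller with normexp, which corrects the background in another way and also adds an offset of 50 to every signal. With it, 13.8% to 18% of the wild type signal was left and the log2 changes lay between -2.86 and -2.47. The correction and the offset were not tried apart.

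**Figure D2:**
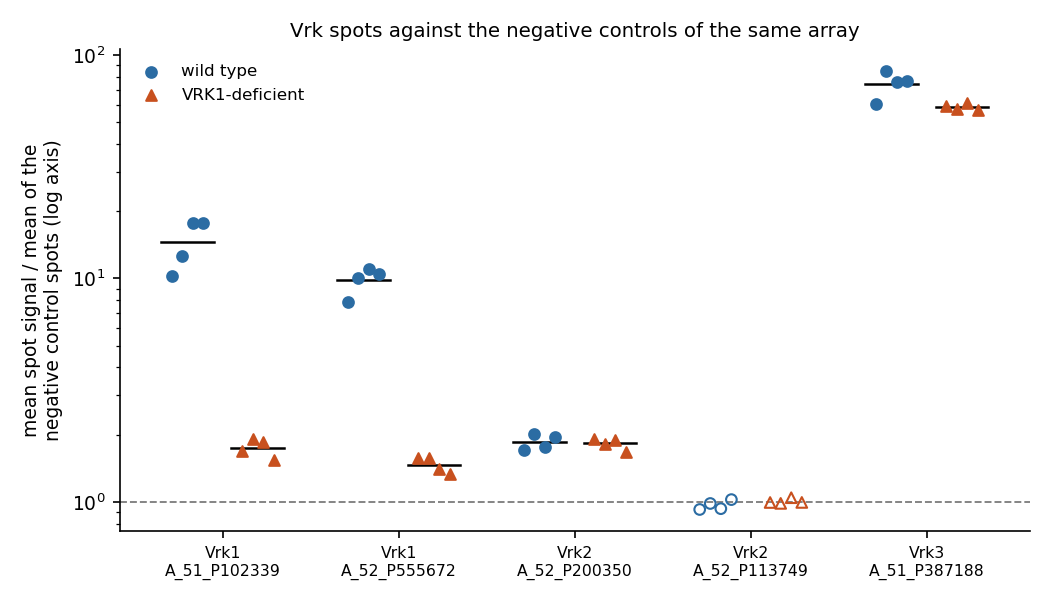
Mean signal of each Vrk spot divided by the mean of the 153 negative control spots of the same array (vertical log axis), before background subtraction, with groups and symbols as in the plot of log2 signals. The Vrk1 spots of the mutants lay at 1.33 to 1.92 times the controls (dashed line at 1), beside Vrk2 at 1.68 to 2.01, whereas the dim Vrk2 probe lay at 0.93 to 1.05.

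What was left of Vrk1 in the mutant was dim but above the negative controls, which are probes designed to match no transcript. Before background subtraction, the junction probe lay at 1.69, 1.92, 1.86 and 1.54 times the mean of the negative controls on VRK1-deficient replicates 1 to 4. The contiguous probe lay at 1.58, 1.57, 1.41 and 1.33 times that mean. The scanner software marked both probes as well above background on all 4 mutant arrays. None of the 153 negative controls was brighter than the junction probe on any mutant array, and 1 was brighter than the contiguous probe, on replicate 3. In wild type testes the same spots lay at 10.2 to 17.7 times the controls on the junction probe and at 7.86 to 11 times on the contiguous probe. Nonspecific binding to these probes was not measured, so the share of the residual signal that comes from Vrk1 transcript is not known.

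Vrk1 signal varied more among wild type than among mutant testes on both probes, and among wild type testes it differed between the slides. On the junction probe, the log2 signals of wild type replicates 1 to 4 were -0.20, -0.11, 0.59 and 0.35, and those of the mutants were -3.97, -3.68, -3.58 and -4.17. The wild type arrays of slide 2 were the higher ones on both probes. The mutant arrays did not share this order. On the contiguous probe they had -4.16 and -4.19 on slide 1 and -4.30 and -4.27 on slide 2. Within slide 1 the log2 change was -3.67 on the junction probe and -3.64 on the contiguous probe (limma adjusted p = 0.0636 and 0.0371). Within slide 2 it was -4.34 and -4.23 (limma adjusted p = 0.0187 and 0.0162). The adjusted p of the junction probe missed the threshold within slide 1, where 2 arrays stood against 2 and 3 probes were called in all.

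The germ cell list was read beside Vrk1 on the same arrays. Of its 8 genes 1, Tdrd1, was called as lower, as were 1.98% of all tested probes. All 8 had a lower mean in VRK1-deficient testes, with a median log2 change of -0.91, against 0.041 for all tested probes. Their mean log2 signal was 1.12, 2.09, 2.52 and 2.27 on wild type replicates 1 to 4 and 0.58, 1.33, 1.25 and 0.85 on the mutants. Among wild type arrays, replicates 1, 2, 4 and 3 were in this rising order for the germ cell mean and for both Vrk1 probes. Replicates 4 and 3, the higher ones, were also the wild type arrays of slide 2. Among mutant arrays the rising order was 1, 4, 3 and 2 for the germ cell mean, 4, 1, 2 and 3 for the junction probe and 3, 4, 2 and 1 for the contiguous probe. The germ cell mean of wild type replicate 1 lay inside the mutant range of 0.58 to 1.33. Its junction probe signal was 10.4-fold above the highest mutant array, and on the contiguous probe that distance was 12-fold. Without wild type replicate 1, the log2 changes were -4.12 on the junction probe and -4.03 on the contiguous probe. The part of germ cell content in the Vrk1 values was not tested.

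**Figure D3:**
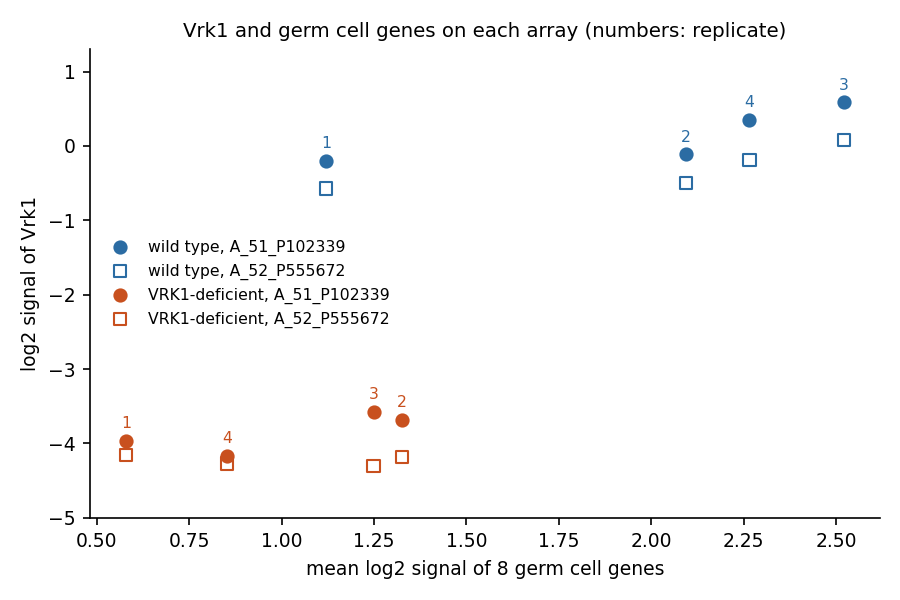
Log2 signal of the 2 Vrk1 probes (vertical axis; filled circles A_51_P102339, open squares A_52_P555672) against the mean log2 signal of 8 germ cell genes (horizontal axis) on each array, both scaled to the array's 75th percentile, with replicate numbers. Wild type replicate 1 lies at 1.12 on the horizontal axis, inside the mutant range, and at -0.20 and -0.57 for Vrk1.

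Vrk2 was close to the limit of detection. The probe for NM_027260 had linear signals of 48, 68.6, 49.4 and 62.6 on wild type replicates 1 to 4 and of 68.4, 60.5, 59.2 and 47.1 on VRK1-deficient replicates 1 to 4. It was well above background on 8 of 8 arrays, at 1.68 to 2.01 times the negative controls. The log2 signals of the mutants, from -3.62 to -3.27, overlapped those of the wild type, from -3.80 to -3.61, by a single mutant array. The group means were -3.69 ± 0.087 for wild type and -3.46 ± 0.15 for mutant testes (SD, n = 4 each). The change of 0.23 on the log2 scale had a standard error of 0.12 and a 95% interval from -0.036 to 0.49 (limma adjusted p = 0.230). In percent of wild type this was 117%, with an interval from 97.5% to 140%. Slide 1 alone gave 0.20 and slide 2 alone 0.25. By the methods' t-test, this probe had a p of 0.0439 before and 0.179 after Benjamini-Hochberg adjustment.

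The other Vrk2 probe, for AK089825, gave no level. It was well above background on 0 of 8 arrays, its spots lay at 0.93 to 1.05 times the negative controls, and its deposited signals of 2.15 to 3.32 were surrogate values that the scanner software sets for dim spots. No fold is given for it.

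The measured Vrk2 probe also lies opposite another gene. A probe of Fancl, which encodes the ubiquitin ligase subunit of the Fanconi anemia complex, is placed on the + strand at chr11:26423728-26423787 and is the reverse complement of the Vrk2 probe over 59 bases. The shared 30-base stretches are shown as each probe holds them.
A_52_P200350 (Vrk2): ctcaaggacaaggaaaatacatgaatattc
A_51_P127928 (Fancl): gaatattcatgtattttccttgtccttgag
Fancl was looked up because of this position. Its probe A_51_P127928 averaged -0.19 ± 0.28 in wild type and -0.19 ± 0.18 in mutant testes (log2 units, SD, n = 4 each), with a log2 change of -0.0037 (95% interval -0.37 to 0.36, limma adjusted p = 0.990). A second Fancl probe away from Vrk2, A_51_P127934, had a log2 change of -0.076 (limma adjusted p = 0.775). Whether labeled Fancl RNA adds to the Vrk2 spot was not tested.

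Vrk3 was measured far above the negative controls, at 57 to 84.6 times their mean. Its linear signals were 4796, 6237, 4911 and 5773 in wild type and 4909, 5158, 4927 and 3972 in VRK1-deficient testes. After scaling, the log2 signals were 2.84, 2.87, 2.93 and 2.92 in wild type and 2.76, 2.79, 3.11 and 2.86 in VRK1-deficient testes. The groups overlapped, and replicate 3 was both the highest mutant and the highest of all arrays. The log2 change of -0.015 had a standard error of 0.11 and a 95% interval from -0.27 to 0.24 (limma adjusted p = 0.945). This was 99.0% of wild type with an interval from 83.0% to 118%. Slide 1 alone gave -0.083 and slide 2 alone 0.054, and the sign also turned, to 0.025 without VRK1-deficient replicate 1 and to 0.015 without VRK1-deficient replicate 2. With 4 arrays against 4, a true change inside that interval remains possible. The smallest change that would be called was not computed, and it need not lie inside the interval.

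**Figure D4:**
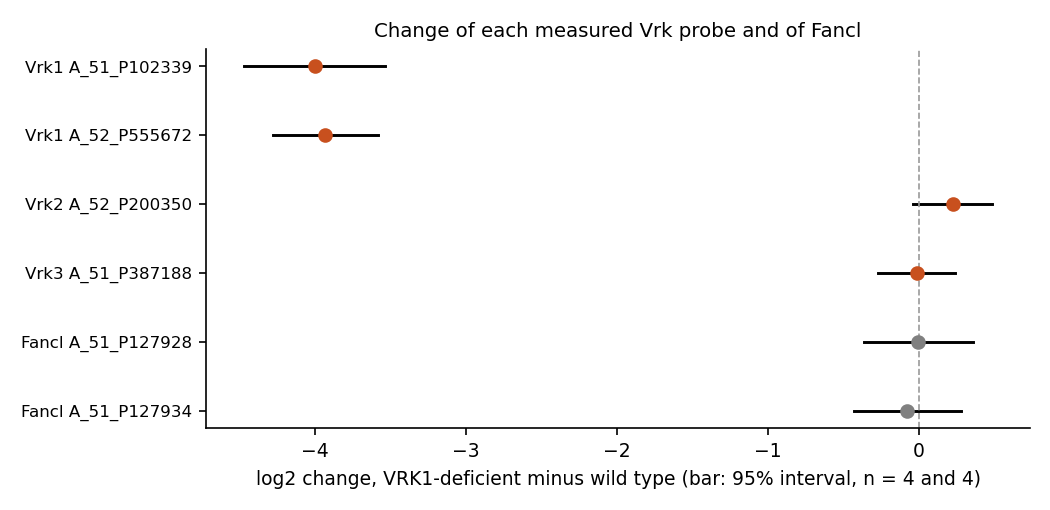
Log2 change, VRK1-deficient minus wild type (horizontal axis), of the 4 measured Vrk probes and of the 2 Fancl probes (gray), with the 95% interval from limma as a bar (4 arrays per genotype). The Vrk1 intervals lie between -4.47 and -3.53, and the intervals of Vrk2, Vrk3 and Fancl include 0.

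The 6 pairs of measured probes were compared within arrays, by the difference of their log2 signals. The smallest p that 70 arrangements of 4 against 4 allow is 0.0286. The log2 changes of the Vrk1 probes lay below that of Vrk2 by -4.23 (junction probe) and -4.16 (contiguous probe), and below that of Vrk3 by -3.99 and -3.92. In these 4 pairs all mutant arrays lay below all wild type arrays (exact two-sided permutation test, p = 0.0286 for each, 0.0343 adjusted over the 6 pairs). The difference between Vrk2 and Vrk3 was small but also without overlap. Vrk2 minus Vrk3 was 0.24 higher in VRK1-deficient testes (exact two-sided permutation test, p = 0.0286, adjusted 0.0343). This adjusted p was computed together with the 4 Vrk1 pairs, which the fall of Vrk1 placed at the smallest p. It therefore adds no support beyond the unadjusted p. By itself, neither the Vrk2 nor the Vrk3 probe passed the test between genotypes with limma, and the Vrk2 probe was close to the limit of detection. Of single tested probes, 16.7% had no overlap between genotypes. How many pairs of other probes differ in this way was not counted. With normexp and quantile normalization, Vrk2 minus Vrk3 was 0.18 (exact permutation p = 0.114). With any 1 array left out it lay between 0.18 and 0.26.

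As a description of pattern, the 5 tested probes of other genes most alike to the brightest probe of each Vrk gene were found by Pearson's r of log2 signal over the 8 arrays, among 26951 probes. A high r with Vrk1 is reached by any probe that separates the genotypes evenly. The probes most like the Vrk1 junction probe were those of Marveld2 (tricellulin, a tight junction protein), Sod1 (superoxide dismutase), the transcript AK083952, Fbxo45 and Brwd1, with r from 0.982 to 0.994. Their log2 changes were much smaller than that of Vrk1, from -0.81 for Marveld2 to -0.29 for Fbxo45. For Vrk2 they were A730090N16Rik, Man2c1os, the unnamed probe A_52_P1004880, Alpk2 and Extl2, with r from 0.926 to 0.930. For Vrk3 they were Zcwpw1, Stil, Calcoco2, Chd6 and 2810002G02Rik, with r from 0.919 to 0.969. Without VRK1-deficient replicate 3, the array farthest from the median for both genes, r was 0.835 to 0.962 for the Vrk2 probes and 0.782 to 0.917 for the Vrk3 probes.

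The wider kinase group showed no call. The casein kinase 1 relatives, 6 casein kinases and the tau tubulin kinases Ttbk1 and Ttbk2, had 4 of 8 genes higher and 4 lower, with 0 called by limma and 2 of 8 at an unadjusted p under 0.05. Over the array, 28.8% of tested probes had such a p. When wild type replicate 1 was dropped, 1 of the 8 was called, as higher, beside 7659 of the 26962 tested probes called in either direction. The median log2 change was -0.010. The largest values were 0.55 for Ttbk1 (limma adjusted p = 0.158) and 0.49 for Csnk1g3 (limma adjusted p = 0.107), and a second Csnk1g3 probe had -0.042. Csnk1g1 had -0.12. Of the 30 listed genes, over all lists, with several tested probes, 17 had probes of both signs.

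Known substrates of VRK1 had values of both signs. Of 9 genes, 5 had a higher and 4 a lower mean, with 0 called by limma, 4 at an unadjusted p under 0.05 (28.8% over the array) and a median log2 change of 0.12. Without wild type replicate 1, 2 were called as lower and 1 as higher, against 3964 and 3695 of the 26962 tested probes. With trend and robust variances 1 was called as lower, as were 1054 of all tested probes. Coil (coilin, of Cajal bodies) and Trp53bp1 (53BP1, of the DNA damage response) had log2 changes of -0.42 and -0.40, with limma adjusted p of 0.0727 and 0.0888. Both had no overlap between genotypes, as had 4 of the 9 genes and 16.7% of all tested probes. Hnrnpa1 had 0.34 (limma adjusted p = 0.133), and Jun 0.29 (limma adjusted p = 0.428). The probes of Atf2, named after its values were seen, disagreed, with 0.12 on the brightest probe and -1.16 on A_52_P130596 (limma adjusted p = 0.0515). Those of Creb1, also named after its values were seen, ranged from 0.28 on the brightest to -0.53. Banf1, named here after its values were seen because BAF is the best known VRK1 substrate, averaged 3.0 ± 0.092 in wild type and 3.12 ± 0.043 in mutant testes (log2 units, SD, n = 4 each). Its groups did not overlap, with a log2 change of 0.12 (95% interval -0.10 to 0.35, limma adjusted p = 0.441), and with signals not scaled between arrays the value was -0.058.

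The list of VRK regulators and partners held 16 genes, such as Ran (a GTPase that binds VRK1), Dusp3 and the MAP kinases. Of these, 9 had a lower and 7 a higher mean, with 0 called by limma, 4 at an unadjusted p under 0.05 (28.8% over the array) and a median log2 change of -0.069. Without wild type replicate 1, 3 were called as lower and 1 as higher, against 3964 and 3695 of the 26962 tested probes. Map3k7 (TAK1, bound by VRK2) had -0.72 (limma adjusted p = 0.0677) and Ksr1 (a MAP kinase scaffold) -0.48 (limma adjusted p = 0.0632). Ccnd1 (cyclin D1) had -0.49 (limma adjusted p = 0.286), and 0.10 within slide 1. Ankle2, a LEM protein that restrains VRK1 toward BAF at mitotic exit, had probes that disagreed. Its brighter probe had -0.50 (limma adjusted p = 0.0855) and the other one 0.51 (limma adjusted p = 0.0498).

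Among 5 other kinases of histone H3, 1 was called, as lower, beside 1.98% of all tested probes called as lower. Gsg2 (haspin, which phosphorylates histone H3 in mitosis) fell by 0.59 on the log2 scale, from -0.36 ± 0.056 to -0.95 ± 0.23 (SD, n = 4, limma adjusted p = 0.0492). It had no overlap between genotypes, as had 16.7% of all tested probes. Its limma adjusted p rose to between 0.0736 and 0.151 when any single array but wild type replicate 1 was dropped, to 0.0522 with quantile normalization and to 0.0545 with slide as a block. It was not called in 15 of 21 alternatives. Of the 5 genes, 2 were called as lower without wild type replicate 1, as were 3964 of the 26962 tested probes. The MSK kinases Rps6ka5 and Rps6ka4 had -0.33 and 0.24 (limma adjusted p = 0.251 and 0.273). The median of the list was -0.11.

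**Figure D5:**
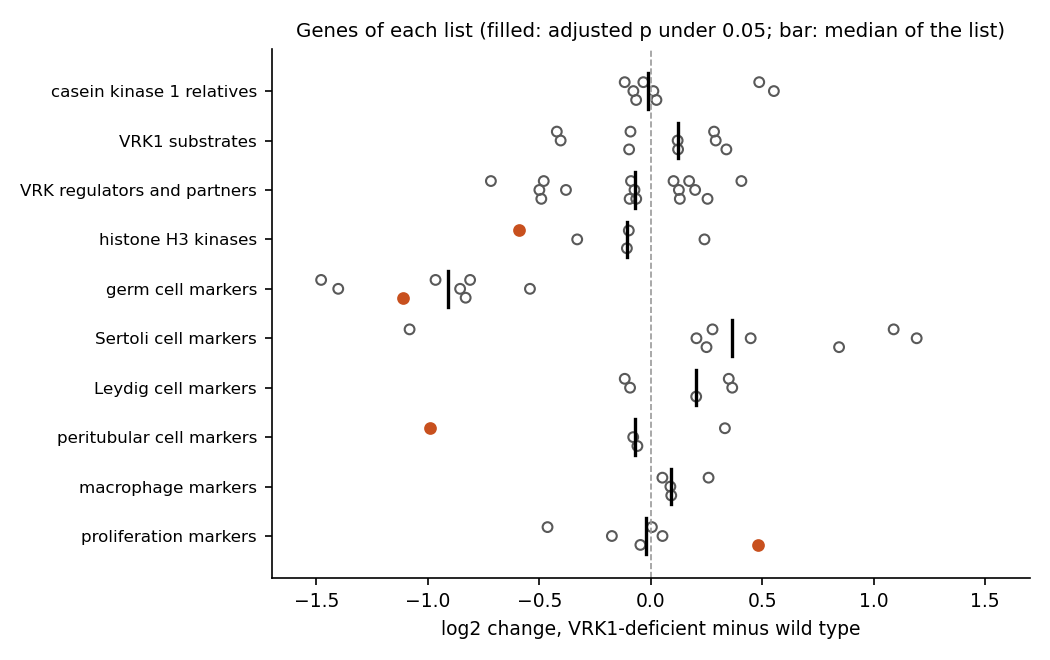
Log2 change, VRK1-deficient minus wild type (horizontal axis), of the tested genes of each list, with the brightest probe for each gene. Filled points passed a limma adjusted p under 0.05, open points did not, and bars are medians of the lists. The 4 filled points are Gsg2 at -0.59, Tdrd1 at -1.11, Cnn1 at -0.99 and Cdk1 at 0.48, and no point reaches the Vrk1 changes near -4, which lie off this scale.

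The cell type markers were read on the same arrays. All markers were well above background on 8 of 8 arrays. Of the 8 germ cell genes, Tdrd1 (a Tudor protein of the piRNA pathway) fell by 1.11 on the log2 scale (limma adjusted p = 0.0498). The other 7 did not pass the test. All 8 had an unadjusted p under 0.05, as had 28.8% of the tested probes. Called germ cell genes numbered 8 without wild type replicate 1 and 0 without any other single array, where 3 to 68 of all tested probes were called. The count was 0 with quantile normalization, without the filter, with slide as a block and within slide 1. It was 3 with normexp and the 75th percentile and 4 within slide 2. With signals not scaled, the filter on 8 arrays or trend and robust variances it was 2. In these fits with 2 to 4 germ cell genes, 645 to 1054 tested probes were called as lower. Over the array, 7659 of the 26962 tested probes were called without wild type replicate 1. Stra8 and Sycp3, genes of meiotic entry and of the synaptonemal complex, had the largest values, -1.48 and -1.40 (limma adjusted p = 0.0760 and 0.132). Of 8 Sertoli cell genes 7 had a higher mean and Rhox5, a homeobox gene, a lower one (-1.08), with 0 called by limma, 5 at an unadjusted p under 0.05 and a median of 0.36. Without wild type replicate 1, 6 Sertoli cell genes were called as higher and 1 as lower, against 3695 and 3964 of the 26962 tested probes. Without any other single array, 0 Sertoli cell genes were called, beside 3 to 68 of all tested probes. With normexp and the 75th percentile, the filter on 8 arrays, trend and robust variances or slide 2 alone, 1 was called as higher. These fits called 312 to 862 tested probes as higher. Amh (anti-Müllerian hormone) had 1.19 and Fshr (the FSH receptor) 1.09 (limma adjusted p = 0.115 and 0.0598). The mean log2 signal of the Sertoli cell list ranged from 2.14 to 2.91 in wild type and from 2.71 to 3.02 in VRK1-deficient testes.

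Leydig cell genes had a median log2 change of 0.20, with 0 of 5 called by limma and 1 at an unadjusted p under 0.05, Hsd3b1 at 0.37 (limma adjusted p = 0.115), followed by Insl3 at 0.35 (limma adjusted p = 0.318). Dropping wild type replicate 1 led to 1 Leydig cell gene called as higher, as were 3695 of the 26962 tested probes. Their list mean ranged from 2.19 to 2.92 in wild type and from 2.43 to 3.1 in VRK1-deficient testes. Of 4 peritubular cell genes 1 was called, as lower, beside 1.98% of all tested probes. This was Cnn1 (calponin), which fell by 0.99 (limma adjusted p = 0.0446). Des (desmin) had 0.33 (limma adjusted p = 0.178), and the median was -0.069. The peritubular mean ranged from 3.14 to 3.42 and from 2.88 to 3.33. Macrophage genes had a median of 0.090, with 0 of 4 called by limma and 0 at an unadjusted p under 0.05. The largest were Lyz2 at 0.26, with 0.71 on a second probe (limma adjusted p = 0.0586), and Csf1r at 0.092, and the list mean ranged from 0.34 to 0.85 and from 0.69 to 0.89. Of 6 proliferation genes 1 was called, as higher, beside 1.67% of all tested probes. This was Cdk1, which rose by 0.48 (limma adjusted p = 0.0492), and the median of the list was -0.020. The brightest Ccnb1 probe had -0.46 (limma adjusted p = 0.290), whereas A_51_P287093 of the same gene had 0.44 (limma adjusted p = 0.0704). For Tdrd1, Cnn1 and Cdk1 the limma adjusted p rose to between 0.0662 and 0.151 when any single array but wild type replicate 1 was dropped. Of 21 alternatives, Tdrd1 was not called in 12, Cnn1 in 10 and Cdk1 in 15. With slide as a block the adjusted p was 0.0517 for Tdrd1 and 0.0507 for Cdk1, and with quantile normalization 0.0507 and 0.0523. The part of cell type shares in the Vrk values was not tested.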

How the data were processed

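Testis RNA was labeled with Cy3 and measured on Agilent mouse arrays with 1 color. The authors extracted the signals with Agilent Feature Extraction 9.5.3.1 (version per the file headers) and deposited processed signals as linear intensities, with background subtracted and not scaled between arrays. The p-value of each spot against its background, per the file headers, was also deposited. The series' value table repeats these intensities, with 0 unequal values. Each array had 45018 spots, 43379 of them no controls, and 63.6% to 69.5% of these passed the software's mark for signal well above background. Precision is limited by the number of arrays.

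Log2 intensities minus the log2 75th percentile of the array (548 to 851) were computed, outlier spots (58 to 134 per array) were left out, and spots of a probe were averaged. A probe was tested if it had that mark on 4 or more of the 8 arrays. The test was limma 3.58.1 (lmFit and eBayes, R 4.3.3) without a block, with Benjamini-Hochberg adjustment over the 26962 tested probes. Log2 changes are VRK1-deficient minus wild type. Pairs of Vrk probes were compared by exact permutation. The limma script was tested on simulated data. Probes took updated symbols from a RefSeq gene table (GRCm38.p6), of which only names were used: 22951 by accession, 6659 by symbol and 3109 by synonym. For listed genes with several probes, the brightest was taken.

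The members and gene lists were chosen with earlier results of these data known. Named are all Vrk probes, the called genes of each list with up to 4 others by size of change, and the 5 probes most alike to each Vrk gene. Alternatives were quantile normalization, normexp (offset 50) with either scaling, signals without scaling, no filter, a filter on 8 arrays, slide as a block and each slide alone, a replicate block, each array left out, trend and robust variances, averaging a gene's probes, the methods' t-test and the ratio of arithmetic means. Same-numbered samples were not treated as pairs, since the labels do not link them. Files were read with pandas 2.3.3 and numpy 2.4.6 (Python 3.11.15) and plotted with matplotlib 3.10.9. No genome of build mm7 and no protein sequences were used here.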

Additional observations from a re-analysis of the deposited data

Results flagged for a closer look

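Of 86 groups of 4 arrays checked for an array far from the other ones (Dixon's ratio of gap to range, whose 95% limit chance passes in about 1 of 20 groups), 3 were picked out, and none was a Vrk probe. The mean of the VRK1 substrates was 1.62 on wild type replicate 4, whereas the remaining wild type arrays had 1.75 to 1.77 (ratio 0.8515). Coil had 2.37 on wild type replicate 1, against 2.66 to 2.72 (ratio 0.8334). Des had 0.18 on VRK1-deficient replicate 3, against -0.38 to -0.28 (ratio 0.8328).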

How the results depend on the processing

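The Vrk1 contiguous probe was called as lower under all 22 alternatives run, with log2 changes from -4.23 to -2.47. The junction probe was so in 21, and within slide 1 its change of -3.67 had a limma adjusted p of 0.0636. Vrk2 stayed positive, from 0.046 to 0.28, and passed the threshold in 2 settings, both of them without adjustment. One was the methods' t-test (0.23), and the other was the ratio of arithmetic means with the same test (0.23). Without adjustment, these settings called 7068 and 7082 of the 26962 tested probes. Vrk3 reversed within slide 2 (0.054), was -0.19 without scaling, and ranged from -0.091 to 0.025 with 1 array left out. The difference between the Vrk1 probes ranged from -0.18 to 0.022 with 1 array left out, and was -0.29 and -0.32 with normexp and quantile or 75th percentile scaling (exact permutation p = 0.0571 for both). Vrk2 minus Vrk3 was 0.18 with normexp and quantile normalization, with an exact permutation p of 0.114. The Vrk1 probes against Vrk2 and Vrk3 differed by -3.87, -3.58, -3.84 and -3.55 within slide 1 and by -4.59, -4.39, -4.48 and -4.29 within slide 2. With normexp they were -2.95, -2.78, -2.66 and -2.48 (quantile) or -3.04, -2.70, -2.73 and -2.38 (75th percentile). The cause of these shifts was not tested.

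The count of called probes (986) was 628 with normexp and quantile normalization, 17 without the filter (more probes tested), 641 with slide as a block, 3 within slide 1 (fewer arrays), 1916 with trend and robust variances, and 162 (adjusted) or 7068 (unadjusted) by the methods' t-test. It ranged from 3 to 7659 with 1 array left out, and the upper value is without wild type replicate 1.

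Without scaling, the median of all tested probes was -0.14 in place of 0.041, and medians moved to -0.19 (casein kinase 1 relatives), -0.058 (VRK1 substrates), -0.25 (VRK regulators and partners), -0.29 (histone H3 kinases) and -0.25 (peritubular cell markers). For VRK regulators and partners the median was 0.0084 with normexp and the 75th percentile, 0.031 within slide 1 and -0.10 to 0.0087 with 1 array left out. The proliferation median was 0.18 within slide 1 and -0.22 within slide 2, the histone H3 kinase median -0.26 within slide 2, and the VRK1 substrate median -0.043 when a gene's probes were averaged. Banf1 (-0.058) and Csf1r (-0.087) reversed without scaling, Ccnd1 within slide 1 (0.10) and Rps6ka5 with normexp and the 75th percentile (0.012).

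With a replicate block, 2280 probes were called, and the Vrk1 probes changed by -4.0 and -3.93 (limma adjusted p = 0.00239 for both), Vrk2 by 0.23 and Vrk3 by -0.015, with no call of a Vrk probe changed. It raised the called germ cell genes from 1 to 7, called 1 Sertoli cell gene as higher and 1 as lower and 1 regulator or partner as lower, and ended the call of Cdk1. For the pairs of Vrk probes, arrangements within slides or replicate numbers cannot give an exact permutation p under 0.0556 or 0.125, and the 5 pairs called without a block gave these. Deviations of same-numbered samples correlated at 0.53, 0.12, 0.21 and -0.19 across 24371 probes, and for 3 of 4 numbers the best match was the same number, a hint from the data and not the design.

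The Vrk1 values in the mutants and the Vrk2 values rest on dim spots. In the mutants both Vrk1 probes lay below 2 times the negative controls, as did Vrk2 on most arrays, and the percent of Vrk1 left was higher with normexp and its offset, which were not tried apart. Wild type replicate 1 had the lowest germ cell mean of its group.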
